A study of Arabidopsis thaliana with 54 samples.

Results

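LBD18 (AT2G45420) and LBD29 (AT3G58190) encode transcription factors of the LATERAL ORGAN BOUNDARIES DOMAIN family that act in the formation of lateral roots. Both were picked by locus identifier, and they are 2 of the 23997 genes in the expression table of a study of Arabidopsis thaliana seedlings. Whole seedlings were left untreated (control) or received guvermectin (GV) at 10 µM, or indole-3-acetic acid (IAA), trans-zeatin (ZT), epibrassinolide (eBL) or gibberellic acid 3 (GA3) at 1 µM each. RNA was taken at 5, 30 and 180 min, which gives 18 groups of 3 libraries and 54 libraries in all. The labels give no ecotype, mutation, transgene, seedling age or solvent for any group, and no root-only sample. Nothing in them tells whether the 3 libraries of a group are separate cultures, and p-values therefore describe the scatter of these libraries, which may be technical.

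Auxin such as IAA is sensed by TIR1/AFB receptors, which send Aux/IAA repressors to destruction and so free auxin response factors (ARFs) to act on their target genes. In Arabidopsis roots, ARF7 and ARF19 switch on LBD16, LBD18 and LBD29 once the repressor IAA14 is removed, and these LBD factors promote the first divisions and the later outgrowth of lateral roots. LBD18 also takes part in the differentiation of water-conducting tracheary elements, and in lateral root emergence it acts on expansin genes that loosen cell walls. LBD29 also regulates genes of auxin transport and cell wall modification in the tissue over a new primordium.

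In the RefSeq annotation of the TAIR10.1 assembly LBD18 spans bases 18718348 to 18720729 of chromosome 2, plus strand, with 2 exons parted by an intron of 1056 bases. Its coding sequence of 789 bases encodes 262 residues. LBD29 spans bases 21548484 to 21549572 of chromosome 3, minus strand, with 2 exons and an intron of 116 bases, and its coding sequence of 657 bases encodes 218 residues. The classical auxin response element that ARFs bind is TGTCTC. Searched on both strands within 1000 bases before the annotated start, it occurred 1 time before each gene, on the opposite strand in both cases, where it reads GAGACA. Such a match stood in 39.6% of the 27443 windows of that length before protein-coding genes, so it does not set these 2 apart. The 100 bases around each match are shown because they hold the only copy of the element in each window. The capitals mark the match, which lay 963 to 958 bases before the start of LBD18 (chr2:18717338-18717437, plus strand) and 601 to 596 bases before that of LBD29 (chr3:21550121-21550220, minus strand).
LBD18: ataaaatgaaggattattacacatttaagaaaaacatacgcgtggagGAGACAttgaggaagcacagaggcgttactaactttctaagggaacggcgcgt
LBD29: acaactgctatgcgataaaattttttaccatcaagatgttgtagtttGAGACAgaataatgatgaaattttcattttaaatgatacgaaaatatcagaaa
Another form of the element, TGTCGG, had 0 matches in both windows (14.6% of all windows hold it). The 4-base core TGTC, which overlaps the longer motifs, had 3 matches before LBD18 and 5 before LBD29, and 99.6% of all windows held at least 1.

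Levels were taken as FPKM (fragments per kilobase of gene, scaled to library depth), a measure per length, so the 2 genes can be set side by side. Implied library totals were 17.8 to 23.8 M reads, of which 5.65 to 7.51 M lay in the genes of the table. No row of the table had a mean level between 10.5 and 344 FPKM, so genes in that range were not analysed here, and ranks below are among the 10622 genes tested. Over all genes the library eBL 30 min replicate 3 differed from the other two of its group (r = 0.867 and 0.871 across genes on the log2 scale, against 0.971 to 0.984 for the 52 other pairs within groups). Results for the 2 genes against the control that touch it are given with and without it. In bulk RNA of whole seedlings, fewer cells of a type and less RNA per cell cannot be told apart.

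LBD18 was low in untreated seedlings and high after 30 min of IAA. The control libraries held 2.41, 1.79 and 1.79 FPKM at 5 min, then 2.82, 3.21 and 2.80 at 30 min, and finally 1.5, 2.28 and 0.836 at 180 min. With IAA the gene stood at 3.32, 2.55 and 2.98 FPKM at 5 min. It reached 27.0, 25.9 and 27.3 FPKM after 30 min and held 24.6, 25.5 and 27.0 FPKM after 180 min. All 6 IAA libraries at 30 and 180 min therefore lay far above every control library, and the 2 later times overlapped each other.

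LBD29 was close to undetected without auxin. Its control values were 0.0513, 0 and 0.0541 FPKM at 5 min, followed by 0.512, 0 and 0.337 at 30 min. The last time gave 0, 0.0970 and 0.0990 FPKM. These values rest on 2, 16 and 4 reads per group. With IAA the values were 1.09, 0.642 and 0.677 FPKM at 5 min (46 reads). They were 6.99, 7.62 and 7.53 FPKM after 30 min (406 reads) and 3.34, 2.29 and 2.77 FPKM after 180 min (178 reads). Every IAA library lay above every control library of its time, and the 3 times did not overlap one another.

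**Figure D1:**
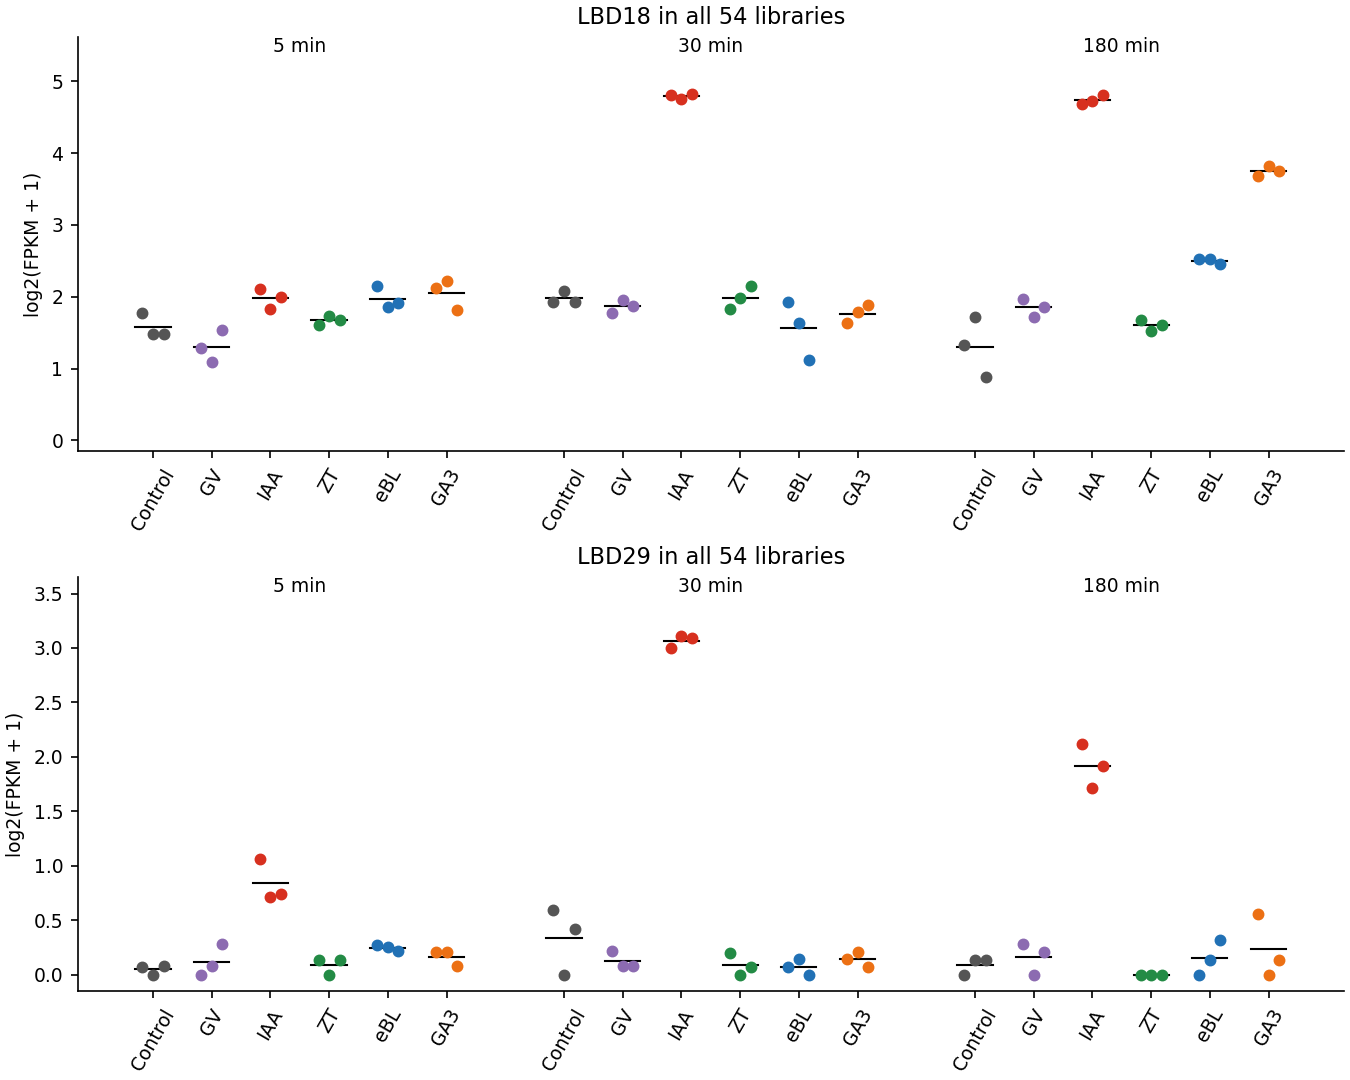
Levels of LBD18 (top) and LBD29 (bottom) on the log2(FPKM + 1) scale in all 54 libraries, grouped by compound and time, with a point per library and a line at the group mean. LBD18 is high with IAA at 30 and 180 min, intermediate with GA3 at 180 min and slightly raised with eBL at 180 min, whereas LBD29 stands out from the other groups in the 3 IAA groups.

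Ordered by mean, LBD18 was highest with IAA at 30 min (26.7 ± 0.719 FPKM, SD, n = 3) and IAA at 180 min (25.7 ± 1.20), whose ranges overlapped. GA3 at 180 min came next (12.4 ± 0.648) and then eBL at 180 min (4.66 ± 0.165), both separate from their neighbours in the order. The other 14 groups ran from 3.18 ± 0.602 (GA3 at 5 min) down to 1.49 ± 0.393 FPKM (GV at 5 min), and each overlapped the next. For LBD29 the order was IAA at 30 min (7.38 ± 0.340), IAA at 180 min (2.80 ± 0.524), IAA at 5 min (0.804 ± 0.250) and control at 30 min (0.283 ± 0.260), with no overlap between these neighbours. All other groups had lower means than that control, with overlapping neighbours, and ZT at 180 min was listed at 0 in all 3 libraries. A count of 3 reads over that group would have given a mean of 0.0512 FPKM.

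IAA was the compound that raised both genes. Differences were tested with limma across all genes on log2(FPKM + 1), called at a Benjamini-Hochberg adjusted p under 0.05. At 5 min LBD29 was higher by 0.79 ± 0.13 on the log2 scale (SE; adjusted p = 1.19e-05, higher in 3 of 3 libraries), where 12.2% of all genes tested were called and 6.86% were called higher. Its reads, set against depth, were 23.0 times those of the control, with an exact 95% counting interval of 6.02 to 196 because the control had 2 reads. The difference in LBD18 at 5 min was 0.40 ± 0.15 (adjusted p = 0.0696, all 3 libraries above all controls) and missed the threshold. It passed without Control 5 min replicate 1, the highest control (0.50, adjusted p = 0.0473), and when eBL 30 min replicate 3 was left out of the shared estimate of spread (adjusted p = 0.0274). LBD18 was as high at 5 min with eBL (3.44, 2.61 and 2.78 FPKM) and GA3 (3.36, 3.66 and 2.5 FPKM) as with IAA: the difference of IAA from eBL was 0.00 (95% interval -0.30 to 0.30), and that from GA3 was -0.07 (-0.37 to 0.22). LBD29, in contrast, was higher with IAA than with eBL by 0.59 (adjusted p = 0.00085) and than with GA3 by 0.68 (adjusted p = 3.89e-05) in limma at 5 min, where 12.2% and 32.0% of all genes were called. The eBL difference missed the threshold with a pseudocount of 0.1 (adjusted p = 0.0535) and on recovered reads (adjusted p = 0.0567).

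By 30 min with IAA, LBD18 was higher by 2.82 ± 0.15 (limma, adjusted p = 9.35e-19) and LBD29 by 2.73 ± 0.13 (adjusted p = 4.12e-20), where 9.83% of all genes were called and 7.16% were called higher. They ranked 3 and 5 among the 10622 genes by log2 change. LBD29 passed the filter of a mean of 1 FPKM only through the IAA groups at 30 and 180 min, so it had to differ there. With no filter on low values its differences at these times were 2.73 and 1.83 (limma, adjusted p = 4.8e-20 and 3.67e-15). As ratios of reads, LBD18 was 9.09 times the control (counting interval 7.91 to 10.5) and LBD29 25.6 times (15.6 to 45.2). Between 5 and 30 min of IAA, LBD18 rose by 2.82 and LBD29 by 2.22 (adjusted p = 1.25e-18 and 9.95e-18), where 12.1% of all genes were called higher.

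After 180 min the genes diverged. LBD18 was higher than the control by 3.44 ± 0.15 (limma, adjusted p = 9.43e-22, rank 2) and LBD29 by 1.83 ± 0.13 (adjusted p = 5.54e-15, rank 29), where 17.7% of all genes were called and 11.2% were called higher. Within the IAA seedlings LBD18 differed by -0.05 (95% interval -0.35 to 0.24) between 180 and 30 min. LBD29 fell by 1.15 over the same interval (adjusted p = 1.5e-09, all 3 libraries lower), where 11.3% of all genes were called lower. With a pseudocount of 0.1 that fall was -1.38 and missed the threshold (adjusted p = 0.0685). The ratio of LBD18 to LBD29 in FPKM was 3.04 to 4.40 in the IAA libraries at 5 min, 3.40 to 3.87 at 30 min and 7.38 to 11.1 at 180 min. Its 180 min values lay above all others, and the ratio was not tested.

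The change of the IAA effect in LBD29 from 30 to 180 min depended on the measure. On log2(FPKM + 1) the effect at 180 min was smaller by 0.90 than at 30 min (difference -0.90, limma adjusted p = 0.000535), where 9.26% of all genes were called. With a pseudocount of 0.5 the difference was -0.85 (adjusted p = 0.0649), with 0.1 it was -0.46 (adjusted p = 0.824), and on recovered reads it was -0.13 (adjusted p = 0.968). The read ratio to the control was 25.6 at 30 min and 41.6 (16.0 to 154) at 180 min, with 16 and 4 control reads, so its intervals overlap. For LBD18 the read ratio was 16.7 (13.9 to 20.1) at 180 min, above that of 30 min. In limma the LBD18 effect differed by 0.62 between these times (adjusted p = 0.0538), and by 0.99 on recovered reads (adjusted p = 0.0107). Untreated LBD18 itself was lower at 180 than at 30 min by 0.67 (difference -0.67, adjusted p = 0.000727, 22.5% of all genes called). The lowest LBD18 control value of the study, 0.836 FPKM, was among those libraries. From 5 to 30 min untreated LBD18 had risen by 0.40 (adjusted p = 0.0348, 31.4% of all genes called), a call that was lost in most refits without 1 library.

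**Figure D2:**
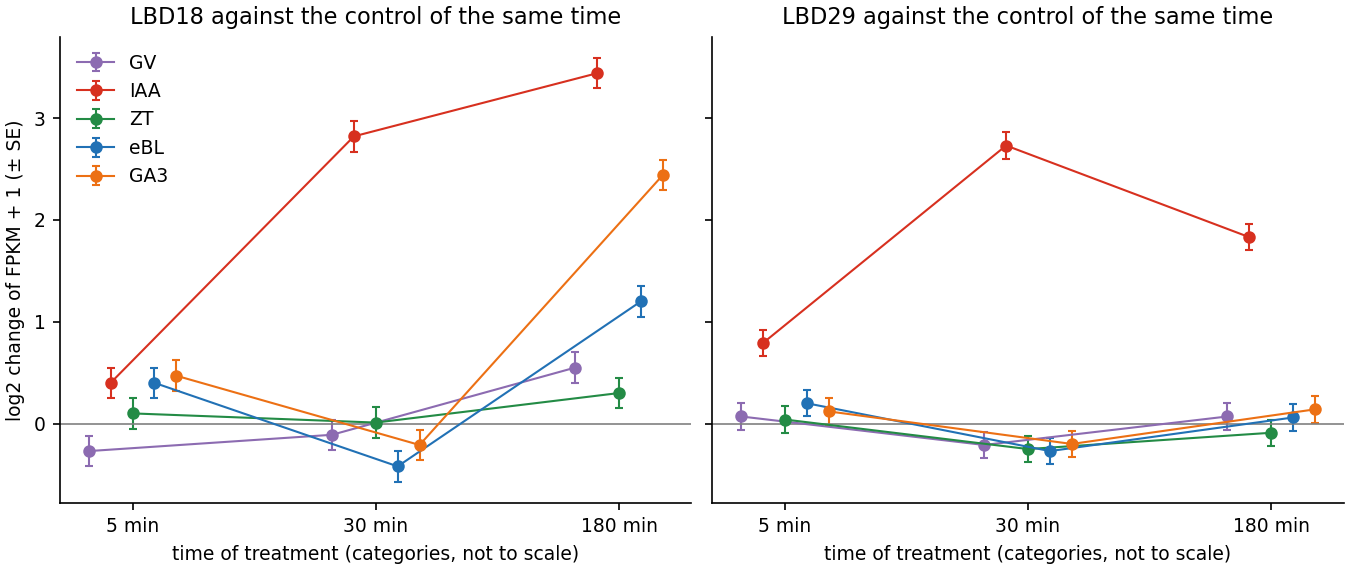
Log2 changes of FPKM + 1 (± SE from limma, n = 3 libraries a group) against the control of the same time for LBD18 (left) and LBD29 (right), by compound, at 5, 30 and 180 min. The IAA line stands above the other compounds at 30 and 180 min in both panels, and LBD18 has further called rises with GA3 (2.44) and eBL (1.20) at 180 min that LBD29 (0.14 and 0.06) lacks.

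GA3 and eBL raised LBD18 late, and no change was detected in LBD29, which had few reads in these groups. With GA3 at 180 min LBD18 stood at 11.8, 13.1 and 12.4 FPKM, all above the 0.836 to 2.28 FPKM of the control. The rise was 2.44 ± 0.15 (limma, adjusted p = 1.63e-17, rank 19), or 8.07 times the control in reads (6.70 to 9.78), where 41.0% of all genes were called and 17.3% were called higher. With eBL the values were 4.77, 4.75 and 4.47 FPKM, again all above the control. That rise was 1.20 ± 0.15 (adjusted p = 1.43e-08, rank 124), or 3.02 times in reads (2.46 to 3.72), where 38.0% of all genes were called and 16.2% were called higher.

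The 3 hormones share their control at 180 min, so they were also compared directly, each at 1 µM. LBD18 was higher with IAA than with GA3 by 0.99 (limma, adjusted p = 6.71e-07) and than with eBL by 2.24 (adjusted p = 2.22e-16), where 39.8% and 38.6% of all genes were called. GA3 exceeded eBL by 1.25 (adjusted p = 9.32e-09, 19.2% called). LBD29 read 0.471, 0 and 0.102 FPKM with GA3 and 0, 0.0965 and 0.246 FPKM with eBL, ranges that overlap the control's. Its difference from the control was 0.14 with GA3 (95% interval -0.11 to 0.40, adjusted p = 0.392) and 0.06 with eBL (-0.20 to 0.32, adjusted p = 0.752). In reads LBD29 was 2.76 times the control with GA3 (counting interval 0.818 to 11.9, 11 against 4 reads). With eBL it was 1.72 times (0.438 to 8.02, 7 against 4 reads). These intervals include the LBD18 ratios of 8.07 and 3.02, so the reads do not exclude a rise of that fold in LBD29. IAA exceeded GA3 in LBD29 by 1.68 (adjusted p = 3.07e-14) and eBL by 1.77 (adjusted p = 3.73e-15).

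Neither hormone had this effect on LBD18 at 30 min. GA3 then gave 2.09, 2.44 and 2.71 FPKM, all below the 3 control values, with a difference of -0.21 that missed the threshold (limma, adjusted p = 0.294). eBL gave 2.81, 2.10 and 1.18 FPKM, a difference of -0.42 (adjusted p = 0.021, 43.6% of all genes called). The lowest of those is eBL 30 min replicate 3, and without it the difference was -0.20 (adjusted p = 0.308). The GA3 effect on LBD18 was larger at 180 than at 30 min by 2.65 (adjusted p = 2.25e-13), and the eBL effect by 1.61 (adjusted p = 1e-07), where 23.8% and 29.5% of all genes were called. Without eBL 30 min replicate 3 the eBL value was 1.39 (limma, adjusted p = 4.48e-07). At 5 min the LBD18 difference with GA3 was 0.47 (adjusted p = 0.0104, 34.7% of all genes called). It missed the threshold under quantile normalization (0.30, adjusted p = 0.101), on recovered reads (adjusted p = 0.0634) and without GA3 5 min replicate 2 (adjusted p = 0.0703).

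Among the 15 comparisons of a compound with its control, LBD18 was called higher in 6 and lower in 1, and LBD29 was called higher in 3 and lower in 0. The 3 LBD29 calls were those with IAA. Where neither gene had a call and no share has yet been given, 11.0% and 4.99% of all genes were called with GV at 5 and 30 min, 3.34% with eBL at 5 min and 31.2% with GA3 at 30 min. GV at 180 min was the sixth LBD18 rise, with 2.92, 2.28 and 2.64 FPKM and a difference of 0.55 (limma, adjusted p = 0.0119, 9.17% of all genes called). That call was lost without the lowest control, Control 180 min replicate 3 (0.33, adjusted p = 0.215), without GV 180 min replicate 1 (adjusted p = 0.0716) and in a fit of those groups alone (adjusted p = 0.105). ZT, the cytokinin, had no call for either gene at any time, with LBD18 at 1.87 to 3.44 FPKM in its 9 libraries, although 27.5%, 38.6% and 41.7% of all genes were called with ZT at 5, 30 and 180 min. Quantile normalization gave a call for LBD18 with ZT at 180 min (0.43, adjusted p = 0.0151), as did leaving out Control 180 min replicate 2 (0.50, adjusted p = 0.00762).

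Root marker genes were called in larger numbers in some of these groups than in others. The list held 14 measured genes, of which 11 passed the level filter. With GA3 at 180 min 8 of the 11 were called higher and 0 lower (limma). Their median was 0.74 against -0.066 over all genes tested, of which 17.3% were called higher. The root hair cell wall gene PRP3 was higher by 1.57 and the root aquaporin gene TIP2-3 by 1.36. Summed root marker levels were 60.5 to 78.3 FPKM with GA3 and 33.7 to 37.3 FPKM in the control. With eBL 6 were higher and 2 lower (sum 48.0 to 51.1 FPKM), and with GV at 180 min 4 were higher and 0 lower (53.1 to 55). Of all genes, 16.2% were called higher and 21.8% lower with eBL, and 9.17% were called with GV. GA3 at 5 min also had a raised sum, 62.7 to 67.5 against 36.1 to 44.1 FPKM. At 30 min GA3 called 3 of the 11 higher and 5 lower (36.1 to 38.1 FPKM), where 31.2% of all genes were called. ZT called 0 higher and 7 lower at 180 min (24.0 to 27.9 FPKM), where 24.7% of all genes were called lower. At 5 min ZT called 0 higher and 6 lower, and at 30 min 5 higher and 3 lower, where 27.5% and 38.6% of all genes were called. The part of these markers in the LBD18 differences with GA3, eBL and GV was not tested. With IAA the root marker sum was 31.9 to 34.5 FPKM at 180 min, overlapping the control, and 47.4 to 52.2 at 30 min, against 45.3 to 46.2 in the control. Of the 11 tested, IAA at 30 min called 1 higher, PRP3 (1.36), and 0 lower. At 180 min EXPA7 (0.83) and PRP3 (0.43) were called higher, and PHO1 (-0.50) and CASP2 (-0.48) lower, moves that offset each other in a sum. At these times 9.83% and 17.7% of all genes were called with IAA. No root marker was at 0 in every library. The nitrate transporter gene NRT2-1, the least detected of them, was at 0 in 21 of 54.

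Tracheary element genes likewise moved with GA3. All 6 that could be tested were called higher at 180 min (median 0.61, against -0.066 over all genes tested, of which 17.3% were called higher), among them the cysteine protease gene XCP2 by 1.19 and the secondary wall cellulose synthase gene CESA8 by 0.71. Their summed level over 10 genes was 20.5 to 23.5 FPKM with GA3 and 9.47 to 11.5 FPKM in the control. It was 16.7 to 17.3 FPKM with eBL, where 2 of 6 were called higher, and 12.4 to 13.8 FPKM with IAA, where XCP2 was the 1 gene called. Of all genes, 16.2% with eBL and 11.2% with IAA were called higher. At 180 min the sum was also above the control's range with ZT (15.7 to 18.7 FPKM) and GV (13.6 to 15.05 FPKM). Each of these called 2 of the 6 higher and 0 lower, where 41.7% and 9.17% of all genes were called. At 5 min the sum lay above the control's 12.4 to 14.7 FPKM with every compound. It was 15.6 to 17.2 FPKM with eBL, the lowest range, 19.95 to 21.38 FPKM with IAA and 19.7 to 21.9 FPKM with GA3. The part of these cells in the LBD18 levels was not tested. Of 6 shoot markers, IAA at 180 min lowered 3, the Rubisco gene RBCS1A by the largest step (-0.74), where 688 of 10622 genes were called lower. The shoot sum fell outside the control's range at 8786 to 9513 against 13354 to 14371 FPKM. The part of that shift in the IAA result at 180 min was not tested. IAA called 2 of the 6 higher at 5 min and 0 at 30 min, where 12.2% and 9.83% of all genes were called. The shoot sum at 180 min was below the control's range with the other compounds too, at 11245 to 12843 FPKM with GA3, 11033 to 11977 FPKM with eBL, 12274 to 13064 FPKM with GV and 8717 to 9864 FPKM with ZT. GA3 called 2 of the 6 higher and 3 lower, where 17.3% of all genes were called higher and 2511 of 10622 lower. eBL called 1 higher and 2 lower, where 16.2% of all genes were called higher and 21.8% lower. The part of this shift in the LBD18 rises with GA3 and eBL was not tested.

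**Figure D3:**
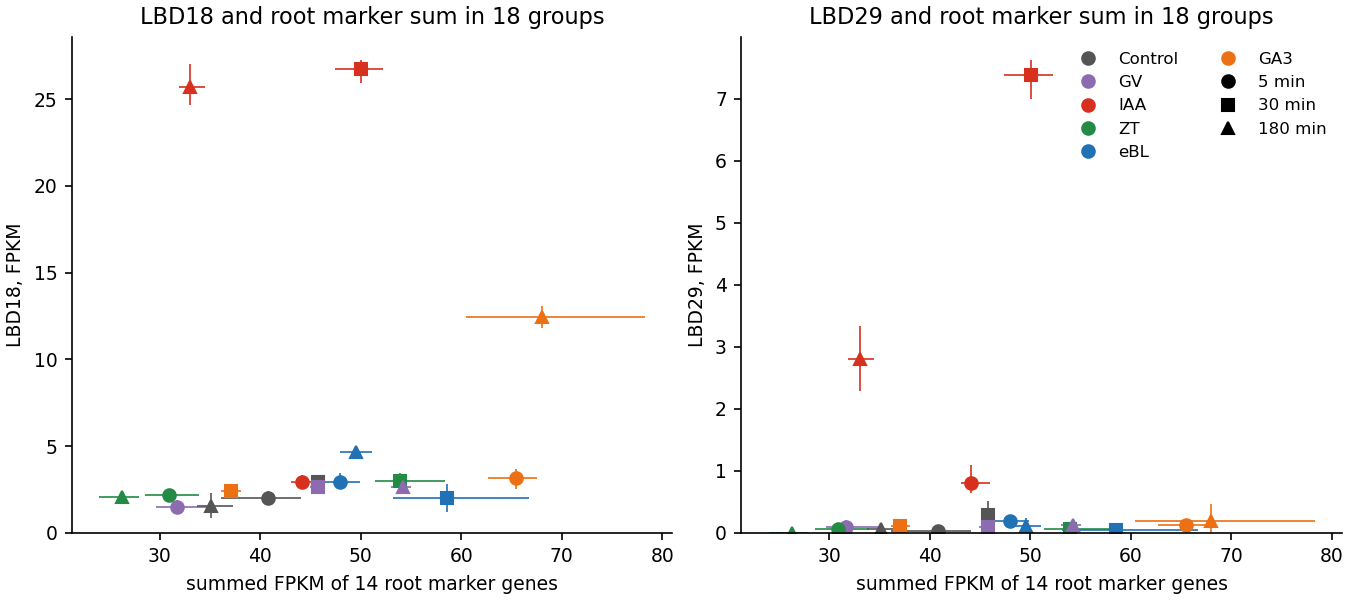
Group means of LBD18 (left) and LBD29 (right) in FPKM against the summed FPKM of 14 root marker genes in the 18 groups, with bars from the lowest to the highest of 3 libraries, colours for compounds and shapes for times. The IAA groups at 30 and 180 min lie high at marker sums of 50.04 and 33.0 FPKM, while GA3 at 180 min, with 12.4 FPKM of LBD18, has the largest marker sum (68.0).

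The measured auxin signalling genes upstream of both factors had smaller changes. Of 9 listed genes 4 were measured, and ARF7, IAA3, IAA28, AUX1 and TIR1 were not analysed here. At 30 min of IAA 3 of the 4 were called higher (median 0.45 against 0.031 over all genes, of which 7.16% were called higher). ARF19, a direct activator of LBD18 and LBD29, rose from 4.67, 3.42 and 3.86 to 8.20, 8.31 and 8.71 FPKM (0.92, limma adjusted p = 2.23e-06). IAA14, the repressor that blocks ARF7 and ARF19, rose by 0.44 (adjusted p = 0.018), and the Aux/IAA gene IAA12 by 0.45 (adjusted p = 0.0379). At 5 min 0 of the 4 were called, and at 180 min IAA14 alone was called (0.51), where 12.2% and 17.7% of all genes were called. GA3 at 180 min raised ARF19 by 0.76 and IAA14 by 0.54, eBL raised IAA14 by 0.51, and both lowered ARF5, the activator also named MONOPTEROS (-0.43 and -0.30). The highest group mean of ARF19 was with ZT at 30 min (9.14 FPKM). With no filter on low values, ARF19 was higher at 30 min with ZT (1.03, limma adjusted p = 1.48e-07) and eBL (0.64, adjusted p = 0.000369, replicate 3 included). It was not called with GV or GA3 then. With ZT and eBL at 30 min 38.6% and 43.6% of all genes were called, and neither LBD18 nor LBD29 was called higher.

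Among 6 tested genes of founder cells and first divisions, MAKR4 had the largest rises with IAA. MAKR4, a membrane-associated kinase regulator that acts in the step from prebranch site to lateral root, read 0.388, 0.610 and 0.657 FPKM in the control at 30 min and 5.48, 7.22 and 6.44 with IAA. Its rise was 1.21 at 5 min, 2.25 at 30 min and 2.43 at 180 min (limma, adjusted p = 3.17e-08, 1.25e-15 and 6.51e-17), with smaller rises by GA3 (0.69) and eBL (0.55) at 180 min. KRP2, a cell cycle inhibitor, was higher at 5 min (0.47) and 180 min (0.41), and MYB77, a partner of ARF7, was lower at 5 min (-0.71). E2FA, a cell cycle factor whose gene LBD18 and LBD33 switch on together, was not called with IAA at any time, with 2.21 to 3.35 FPKM at 30 min against 2.80 to 3.49 in the control. GATA23, a founder cell factor, stayed under the filter of 1 FPKM. It had 13 reads with IAA at 30 min and 0 in the control of that time, at 0.413, 0.0758 and 0.559 FPKM.

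Few primordium genes were called with IAA before 180 min. Of 6 tested, 1 was called at 5 min of IAA, PLT5, higher by 0.35 (limma, adjusted p = 0.0468). At 30 min 0 were called and at 180 min 3, where 12.2%, 9.83% and 17.7% of all genes were called at the 3 times. For a list of 6 genes the counts at 5 and 30 min are near these shares. At 180 min PLT7 rose by 0.79 and PLT5 by 0.58 (limma, adjusted p = 0.000137 and 0.00031), while FLP, a MYB factor, fell by 0.44. PLT5 and PLT7 encode AP2-type factors that act in primordium initiation and spacing. eBL at 180 min moved this list the other way, with 5 of 6 called lower and a median of -0.49 against -0.052 over all genes tested, of which 21.8% were called lower. PLT5 was lower by 1.49 there, at 2.23 ± 0.274 against 8.09 ± 0.986 FPKM in the control (SD, n = 3). The control means of PLT5 were 1.14, 5.53 and 8.09 FPKM at 5, 30 and 180 min, and those of PLT7 were 0.664, 1.59 and 2.23 FPKM. The differences at 180 min are therefore set against controls that were themselves higher than at 5 min. ZT at 180 min, against the same control, called 1 of the 6 higher and 5 lower, with a median of -0.53 against -0.051 over all genes tested, of which 24.7% were called lower. PUCHI, which acts on primordium cell divisions, did not reach 1 FPKM in any group, and IAA gave it 12 reads at 30 min against 9 in the control.

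The expansin genes linked to LBD18 did not follow its early rise. EXPA17, a target of LBD18 in lateral root emergence, was lower with IAA at 30 min, with 0.252, 0.185 and 0.0975 against 0.999, 0.638 and 0.597 FPKM (difference -0.56, limma adjusted p = 0.0064). At 180 min it was higher, with 1.39, 1.23 and 1.21 against 0.233, 0.516 and 0.351 FPKM (0.74, adjusted p = 0.000121). The groups did not overlap at either time. Against the same 30 min control EXPA17 was also lower with GV (-0.68, adjusted p = 0.00133), ZT (-0.62, adjusted p = 0.000607) and GA3 (-0.45, adjusted p = 0.0148) in limma. It was higher with eBL (1.08, adjusted p = 5.52e-08), and by 1.16 (adjusted p = 9.92e-08) without eBL 30 min replicate 3. EXPA17 was also higher with eBL at 180 min (0.53, adjusted p = 0.00268). EXPA14, another expansin gene that LBD18 acts on, was not called with IAA at any time, and stood at 1.71, 1.90 and 2.46 FPKM at 180 min against 1.73, 1.74 and 1.72 in the control. With GA3 at 180 min, EXPA14 was higher by 0.37 (adjusted p = 0.0306). Of the 5 genes of this list tested, IAA at 5 min called 0, IAA at 30 min called 1 lower and IAA at 180 min called 1 higher. At these times 12.2%, 9.83% and 17.7% of all genes were called.

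**Figure D4:**
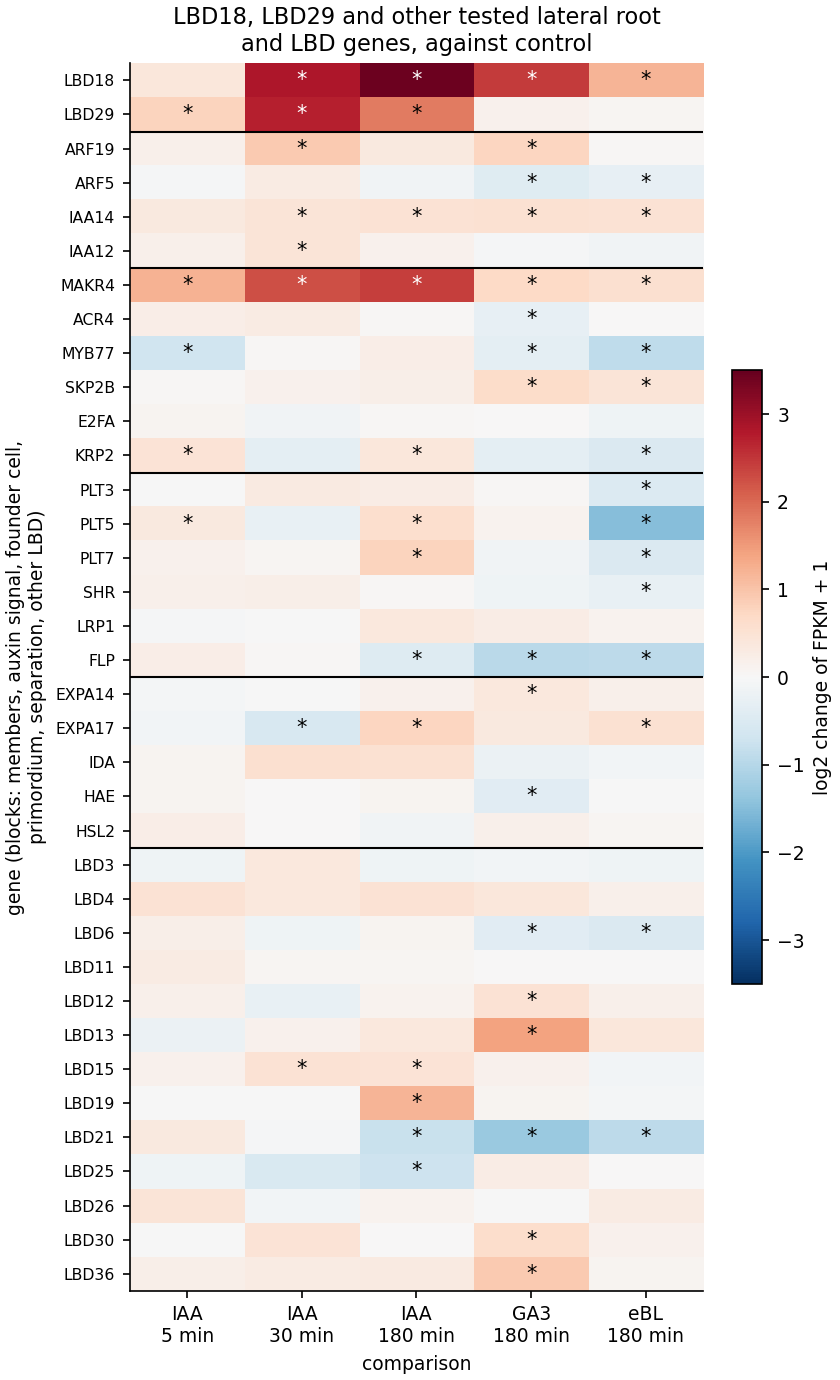
Log2 changes of FPKM + 1 against the control in 5 comparisons for LBD18, LBD29, tested lateral root genes and the other tested LBD genes, in blocks by list, with an asterisk where limma's adjusted p was under 0.05. LBD18 (2.82 and 3.44), LBD29 (2.73 and 1.83) and MAKR4 (2.25 and 2.43) have the deepest colours with IAA at 30 and 180 min, and LBD19 (1.19) has its asterisk with IAA at 180 min.

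Other LBD genes were set beside the pair. Of 39 other LBD genes listed, 33 were measured, 13 were tested, 20 lay under 1 FPKM in every group, and 6, LBD16 among them, were not analysed here. IAA called 0 of the 13 at 5 min, 1 at 30 min (LBD15 by 0.51) and 4 at 180 min, where 12.2%, 9.83% and 17.7% of all genes were called. Those 4 were LBD19 (1.19) and LBD15 (0.48), called higher, and LBD21 (-0.78) and LBD25 (-0.72), called lower. The medians with IAA were 0.17, 0.07 and 0.11 at the 3 times, against 0.028, 0.031 and 0.046 over all genes. GA3 at 180 min called 4 higher, with LBD13 at 1.42, and 2 lower, with LBD21 at -1.31. In that comparison 17.3% of all genes were called higher and 2511 of 10622 lower.

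LBD19 is the gene next to LBD18 on chromosome 2, at bases 18712220 to 18713211 in TAIR10.1. It read 1.32, 1.81 and 1.30 FPKM with IAA at 180 min against 0, 0.208 and 0.0531 in the control. It passed the filter of 1 FPKM only through that group, so it had to differ there. With no filter on low values the difference was 1.19 (limma, adjusted p = 1.01e-09). At 30 min, when LBD18 was already high, LBD19 stood at 0.0609, 0.447 and 0 FPKM against 0.220, 0.178 and 0.120 (-0.02, adjusted p = 0.953). With GA3 at 180 min it differed by 0.10 (adjusted p = 0.568). AT3G58200, beside LBD29, stayed between 0.102 and 1.51 FPKM in single libraries and did not pass the filter.

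LBD14 and LBD17 were under the filter but had their highest group means with IAA at 30 min; they were picked out after their values were seen. LBD14 read 0.845, 0.621 and 0.900 FPKM there, from 29 reads, and was listed at 0 in all 9 control libraries. By 180 min of IAA it was at 0.0730, 0.322 and 0.145 FPKM. LBD17 read 0.823, 0.604 and 0.425 FPKM with IAA at 30 min against 0.148, 0.107 and 0.433 in the control, which overlap. With no filter on low values both were called higher with IAA at 30 min, LBD14 by 0.84 (limma, adjusted p = 4.33e-13) and LBD17 by 0.40 (adjusted p = 0.0108). LBD33, a partner of LBD18, had 10 reads with IAA at 30 min and 7 in the control.

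The genes most like each member were ranked by Pearson r over the 18 group means of log2(FPKM + 1), which share libraries and controls. Nearest to LBD18 came GH3.1 (r = 0.932), of a family of auxin-conjugating enzymes, then AT2G43860 (0.903), AT1G64405 (0.895), AT5G67430 (0.891), the small auxin-up gene AT5G42410 (0.867), the small-peptide genes RTFL15 (0.866) and RTFL19 (0.859), and the peptide gene CLE1 (0.857). AT2G43860 rose with IAA by 2.28 at 30 min and 3.57 at 180 min, and with GA3 by 1.55 and eBL by 1.03 at 180 min, called in each (limma). Nearest to LBD29 came the Aux/IAA gene IAA5 (r = 0.980), then DVL21 (0.962), RTFL13 (0.951), the Aux/IAA gene IAA29 (0.943), GH3.1 (0.938), AT5G42410 (0.931), AT4G05525 (0.930) and MAKR4 (0.925). IAA5 rose by 0.87 at 5 min, 3.74 at 30 min and 2.01 at 180 min of IAA. Because the ranking used these same group means, a course like that of LBD29 followed from the choice of IAA5. The same holds for AT2G43860 beside LBD18. The members themselves had r = 0.842, which made LBD29 number 14 in the order for LBD18, and LBD18 number 25 in the order for LBD29.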

How the data were processed

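The study's 1 deposited table gives no unit. The deposited values were taken as FPKM because, multiplied by gene length, 100% of those above 0 were whole numbers of reads (tolerance 0.05 reads). Another unit per length with 1 scale factor per library would pass that check too, so it does not single out FPKM. The implied library totals and the depth scaling of the read ratios rest on this reading. Per the submitters' processing notes, Bowtie2 2.2.3 and the TAIR10 build were used; which tool counted reads, and whether by strand, is not given in the sources used here. Columns were matched to libraries by name, and the GV columns by elimination. Of 24000 lines, 3 were damaged and left out, and 0 per-sample columns were unmatched. Of 23498 nuclear rows with a TAIR10.1 locus, 99.9% had the same start and end.

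The 10622 genes whose mean reached 1 FPKM in any group were tested with limma 3.58.1 in R 4.3.3 (trend and robust settings) on log2(FPKM + 1), with all 54 libraries in 1 fit (36 residual degrees of freedom). This scale understates changes of low genes such as LBD29. Recovered reads gave the read ratios, whose exact 95% intervals cover counting error only, and an alternative fit with limma's voom (TMM library sizes). Other alternatives were the pseudocount (0.1, 0.5), quantile normalization, no filter, the compared groups alone, each library left out, and a replicate block. The steps were tested on simulated data.

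The members and all lists were chosen with earlier results of these data known. Genes named from a list are known partners of a member or those with the largest IAA changes at 30 or 180 min, up to 8 a list, and the 8 nearest patterns a member. Comparisons of IAA with GV, ZT, eBL and GA3 at 5 and 30 min and with GV and ZT at 180 min, of IAA between times, and of GA3 with eBL were added after the levels were seen.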

Additional observations from a re-analysis of the deposited data

Results flagged for a closer look

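Several compound effects differed between times by limma's test of the difference itself, on log2(FPKM + 1) with Benjamini-Hochberg adjustment over all genes tested. For LBD18 the IAA effect was larger at 30 than at 5 min by 2.42 (adjusted p = 1.3e-11) and at 180 than at 5 min by 3.03 (adjusted p = 4.08e-15). The GA3 effect on LBD18 was lower at 30 than at 5 min (difference -0.69, adjusted p = 0.00774), larger at 180 than at 30 min by 2.65 and at 180 than at 5 min by 1.97 (adjusted p = 2.25e-13 and 4.03e-10). The eBL effect on LBD18 followed the same order, with -0.81, 1.61 and 0.80 (adjusted p = 0.0033, 1e-07 and 0.00432). Without eBL 30 min replicate 3 the first 2 were -0.59 and 1.39 (adjusted p = 0.0227 and 4.48e-07). The GV effect on LBD18 was larger at 180 than at 5 min by 0.82 (adjusted p = 0.00653). With only the groups compared in the fit, the eBL difference of -0.81 and the GV difference of 0.82 missed the threshold (adjusted p = 0.0826 and 0.052). Without Control 180 min replicate 3 the GV difference was 0.60 (adjusted p = 0.0537), and under quantile normalization the first GA3 difference was -0.42 (adjusted p = 0.0989).

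For LBD29 the IAA effect was larger at 30 than at 5 min by 1.94 and at 180 than at 5 min by 1.03, and at 180 min it differed from 30 min by -0.90 (adjusted p = 1.04e-10, 3.13e-05 and 0.000535). The first 2 lost the call with a pseudocount of 0.1 (adjusted p = 0.147 and 0.243) and on recovered reads (0.534 and 0.557). The third lost it with pseudocounts of 0.5 (0.0649) and 0.1 (0.824) and on recovered reads (0.968).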

How the results depend on the processing

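Of 140 recomputed values for the 10 differences of LBD18 and LBD29 with IAA at each time and with GA3 and eBL at 180 min, 136 kept their direction and their side of the threshold. Uncalled LBD29 differences at 180 min turned sign in 2 values: with eBL, -0.02 to 0.14 over refits without 1 library, and with GA3, -0.02 to 0.26. The 2 values that gained a call were LBD18 with IAA at 5 min without Control 5 min replicate 1 (0.50, adjusted p = 0.0473) and without eBL 30 min replicate 3 in the fit (0.40, adjusted p = 0.0274); leaving out each library in turn moved it between 0.33 and 0.50. The cause was not tested. On recovered reads (limma voom) the LBD29 differences with IAA were 3.85, 5.30 and 5.17 at 5, 30 and 180 min, larger than on log2(FPKM + 1) because 1 is added to low values there. Over the other comparisons of the 2 genes, 1289 values kept direction and side, 31 lost a call, 24 gained one and 32 turned sign. In those that turned sign, no call was made in either fit. Under quantile normalization they were ZT at 5 min (LBD18 -0.06, LBD29 -0.03), GA3 at 5 min (LBD29 -0.04), the ZT effect at 30 against 5 min (LBD18 0.13) and IAA against GA3 at 5 min (LBD18 0.05). With a pseudocount of 0.1 and on recovered reads they were the LBD29 effects at 180 against 5 min of GV (-0.01 and -0.05) and GA3 (-0.19 and -0.59), and on recovered reads that of ZT at 180 against 30 min (-0.12). Refits without 1 library gave, for LBD29, -0.01 to 0.13 with GV at 5 min, -0.06 to 0.08 and -0.14 to 0.14 for the GV and GA3 effects at 180 against 5 min, and -0.08 to 0.20 for GA3 against eBL at 180 min. For LBD18 they gave -0.07 to 0.09 with ZT at 30 min, -0.01 to 0.41 for the ZT effect at 180 against 5 min, and at 5 min -0.06 to 0.09 for IAA against eBL and -0.20 to 0.01 for IAA against GA3. LBD29's IAA effect at 30 against 5 min was 1.91 (adjusted p = 0.147) with a pseudocount of 0.1 and 1.45 (0.534) on recovered reads, and at 180 against 5 min 1.45 (0.243) and 1.32 (0.557). Without Control 30 min replicate 2, listed at 0, LBD29 was called lower at 30 min with ZT (-0.42), eBL (-0.43) and GA3 (-0.37). LBD18 in the control at 30 against 5 min (0.40, adjusted p = 0.0348) was lost without each of 5 of its 6 libraries. Genes called lower with IAA at 30 min numbered 283, but 177 without IAA 30 min replicate 3 and 440 without eBL 30 min replicate 3.

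Replicate numbers did not pair libraries, since the 45 correlations of same-numbered deviations lay between -0.0911 and 0.0735. With a replicate block no call of a compound against control changed for these genes, LBD18 with IAA at 5 min being 0.40 (adjusted p = 0.0734), and the eBL effect on LBD29 at 30 against 5 min gained a call (-0.46, adjusted p = 0.0416). Depth limits LBD29 outside the IAA groups, where a group held at most 16 reads.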
